A study of Mus musculus with 6 samples.

Results

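The genes described here are the anterior members of the HoxA and HoxD clusters, Hoxa2, Hoxa3, Hoxa4, Hoxa5, Hoxa6, Hoxa7, Hoxd1, Hoxd3 and Hoxd4. They were chosen by name, and each of the 9 had a row among the 23446 rows of the deposited table that carry a gene symbol. RNA sequencing measured them in the AGM (aorta, gonad and mesonephros), the trunk tissue beside the embryonic aorta from which blood stem cells emerge, taken at E11.5. The groups were tph2-/- (2 libraries), tph2+/- (2 libraries) and tph2+/+ (2 libraries), all on a C57BL/6 background with no treatment named. Tph2 encodes a tryptophan hydroxylase of serotonin synthesis. The mutated part of the gene, and how many embryos went into a library, were not stated in the labels, so p-values measure the spread between libraries, which may be technical.

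Hox genes encode homeodomain transcription factors that give cells along the body axis their positional identity. The genes of a cluster lie in the order of their expression along that axis, with the anterior genes at the 3′ end switched on earliest, in part by retinoic acid, and the posterior genes at the 5′ end later. Hox proteins bind DNA together with the TALE homeodomain cofactors of the Meis, Pbx and Pknox families, and Polycomb complexes keep Hox genes silent where they are not used. In blood-forming tissue, HoxA genes in particular are known for their activity in stem and progenitor cells.

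RPKM values (read counts divided by gene model length and library depth) rested on an estimated 38800000 to 46000000 reads per library. Tph2 RNA stood near the floor in every library, at 0.0393 and 0.068 RPKM in tph2-/-, 0.0472 and 0.028 RPKM in tph2+/-, and 0.0497 and 0.0764 RPKM in tph2+/+, so its level did not check the labels. Of 10 marker genes of the AGM, mesonephros and gonad, none was listed at 0 in any library, and their summed level was 91.6 and 98.5 RPKM in tph2-/-, 92.8 and 94.6 RPKM in tph2+/-, and 114 and 115 RPKM in tph2+/+. Xist, the RNA of the inactive X chromosome, stood at 0.059 and 0.114 RPKM in tph2-/- libraries, 101 and 0.0916 RPKM in tph2+/- libraries, and 79.1 and 76.3 RPKM in tph2+/+ libraries. Both tph2-/- libraries therefore had a male pattern and both tph2+/+ libraries a female one, and sex cannot be told apart from genotype in that comparison. In tph2+/-, replicate 1 had the female pattern and replicate 2 the male one, so sex was unbalanced in the other comparisons too.

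The anterior genes differed by genotype in 3 ways. Hoxd3 and Hoxd4 fell in tph2+/- AGM, by 33.1% and 35% of their tph2+/+ level, while in tph2-/- AGM they stood close to tph2+/+. Hoxa7 fell against tph2+/+ in tph2-/- AGM (33.5%) and in tph2+/- AGM (25.5%). Its tph2+/- call was lost without some single libraries, and both of its calls were lost with a sex term in the fit. Hoxa3 fell by 16.1% in tph2-/- and Hoxa6 by 21.4% in tph2+/-, and both calls were also lost with the sex term. The Hoxa6 call was lost without some single libraries, and the Hoxa3 call when any library of either genotype compared was left out. Hoxa2, Hoxa4 and Hoxa5 passed the threshold in no comparison. Changes were called with limma on log2(RPKM + 1), at a Benjamini-Hochberg adjusted p under 0.05 over the 12869 genes that averaged 1 RPKM or more, and every log2 fold change below is on that scale. In bulk tissue, fewer cells of a type and less RNA per cell cannot be told apart.

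**Figure D1:**
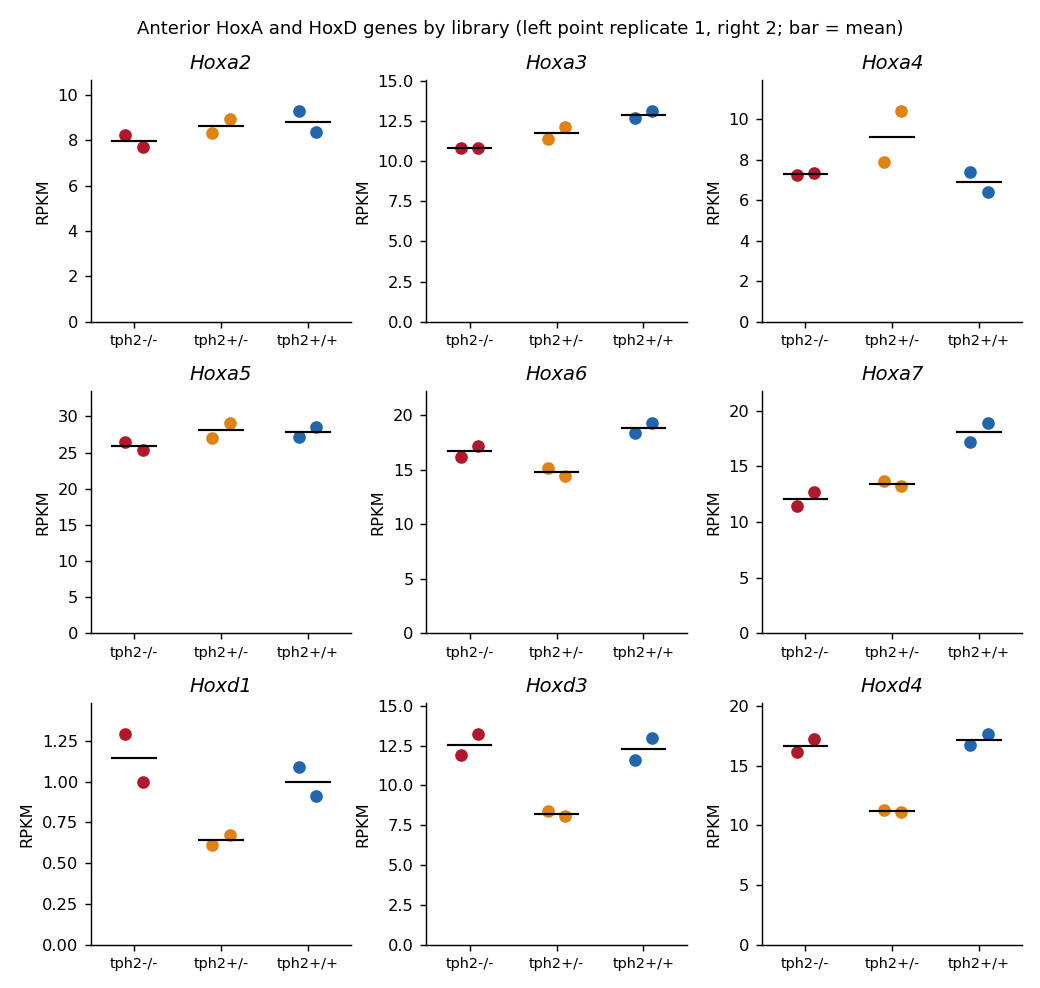
RPKM of each of the 9 genes in each library, with tph2-/- at the left, tph2+/- in the middle and tph2+/+ at the right of each panel; points are libraries (replicate 1 left, replicate 2 right) and bars are means of 2 libraries. Hoxd1, Hoxd3 and Hoxd4 are lowest in the 2 tph2+/- libraries, and Hoxa7 is highest in the 2 tph2+/+ libraries, at 17.2 and 18.9 RPKM.

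By their mean over the 6 libraries the levels ran from Hoxa5 (27.3 RPKM) through Hoxa6 (16.8), Hoxd4 (15), Hoxa7 (14.5), Hoxa3 (11.8), Hoxd3 (11), Hoxa2 (8.47) and Hoxa4 (7.78) to Hoxd1 (0.928 RPKM). Hoxa5 was above every other gene in each library, and Hoxd1 was below every other. The ranges of all other neighbours in this order overlapped. Hoxd4 stood above Hoxa7 in 2 of 6 libraries only, the tph2-/- pair, and Hoxa3 above Hoxd3 in 4 of 6, the tph2+/- and tph2+/+ libraries. Hoxd1 missed the filter of 1 RPKM, so 8 of the 9 genes entered the test.

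The HoxD genes lie on chromosome 2 of GRCm38 on the plus strand, with the annotated gene Hoxd3 at chr2:74711927-74748442, Hoxd4 at chr2:74711929-74729160 and Hoxd1 at chr2:74762980-74765142. Hoxd3 and Hoxd4 share 388 exonic bases on the same strand. Further exonic bases are shared with Gm28230, an overlapping protein-coding gene model of the same strand (2225 bases of Hoxd3 and 1154 of Hoxd4), and 347 with the antisense gene Hoxd3os1. In all, 62.8% of the exonic bases of Hoxd3 and 52.3% of those of Hoxd4 are also annotated to another gene, and none of Hoxd1. How the counting assigned reads in shared exons is not given in the sources, and the kit did not mark strand. The deposited values rest on gene models of 2902 bases (Hoxd3) and 2559 bases (Hoxd4), lengths that no annotated transcript of either gene has. The shared part of those models is not known. The values of Hoxd3 and Hoxd4 are therefore uncertain, and the percentages above do not measure by how much.

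The stretches upstream of the RefSeq starts of Hoxd3 and Hoxd4 are shown because the values of these genes moved together. The annotated gene Hoxd4 also starts just after the stretch named Hoxd3. The stretch named Hoxd4 lies inside both annotated genes, so the stretches are not separate promoters of separate genes. Each is written 5′ to 3′ on the plus strand and stops before the first annotated exonic base. Capitals mark letters found on either strand that match AGGTCA (a half-site of retinoid receptors, read as TGACCT on the other strand), TTTATG (the letters bound by caudal factors) or TATAAA (the TATA box, read as TTTATA on the other strand).
Hoxd3, chr2:74711743-74711926 (GRCm38.p6): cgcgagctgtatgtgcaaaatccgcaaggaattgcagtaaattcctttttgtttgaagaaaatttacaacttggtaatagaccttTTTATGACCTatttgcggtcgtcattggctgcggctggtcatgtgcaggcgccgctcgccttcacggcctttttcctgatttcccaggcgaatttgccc
Hoxd4, chr2:74721728-74721977 (GRCm38.p6): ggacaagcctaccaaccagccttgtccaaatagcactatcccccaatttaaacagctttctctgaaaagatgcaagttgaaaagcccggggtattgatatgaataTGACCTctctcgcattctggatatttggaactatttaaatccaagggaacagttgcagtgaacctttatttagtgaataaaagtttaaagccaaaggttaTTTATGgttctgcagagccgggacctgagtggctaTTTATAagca
Both stretches held 1 match to AGGTCA and 1 to TTTATG, which overlap each other in Hoxd3, and Hoxd4 also held 1 to TATAAA, starting 10 bases before its start. Over the 250 bases before the start of 32851 promoters, the shares with a match on either strand were 14% for AGGTCA, 10.8% for TTTATG and 12.4% for TATAAA. Neither held TGATNNAT, the letters of Pbx with Hox (7.68% of promoters), or GGGCGG, the GC box (32.7%). Among the 8 genes with a promoter in the table, the number of CG dinucleotides in the 250 bases ran between 3 (Hoxd4) and 28 (Hoxa5), and the median of all promoters was 6. A match is only a match of letters.

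Hoxd4, which patterns the neck vertebrae and the hindbrain, had 16.1 and 17.2 RPKM in tph2-/-, 11.3 and 11.1 RPKM in tph2+/-, and 16.7 and 17.6 RPKM in tph2+/+. The 2 tph2+/- libraries lay below the other 4, and the tph2-/- and tph2+/+ libraries overlapped. In reads these were 1593 and 1724, 1165 and 1155, and 1969 and 2025 on a gene model of 2559 bases. The tph2+/- mean of 11.2 ± 0.162 RPKM was 35% below the tph2+/+ mean of 17.2 ± 0.645 RPKM (SD, n = 2 each), a log2 fold change of -0.58 ± 0.0609 (SE, limma adjusted p = 0.000746). In tph2-/- the mean of 16.6 ± 0.787 RPKM was 1.49-fold that of tph2+/- (0.53 ± 0.0609, adjusted p = 0.0031). Against tph2+/+ the tph2-/- value was -0.05, with a 95% interval of -0.18 to 0.09 (adjusted p = 0.655), an interval that does not reach the tph2+/- change.

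Hoxd3, which shapes the uppermost neck vertebrae, had 11.9 and 13.2 RPKM in tph2-/-, 8.37 and 8.06 RPKM in tph2+/-, and 11.6 and 13 RPKM in tph2+/+. As for Hoxd4, the tph2+/- libraries were the lowest and the other genotypes overlapped. These values rested on 1334 and 1508 reads in tph2-/-, 980 and 955 in tph2+/- libraries, and 1544 and 1692 in tph2+/+. The means were 8.21 ± 0.219 RPKM in tph2+/- and 12.3 ± 1.01 RPKM in tph2+/+ (SD, n = 2 each), 33.1% lower in tph2+/- (-0.53 ± 0.0765, adjusted p = 0.00392). Against tph2+/-, the tph2-/- mean of 12.6 ± 0.981 RPKM was 1.53-fold higher (0.56 ± 0.0765, adjusted p = 0.008), a call that depended on tph2-/- replicate 2, without which the value was 0.48 and the adjusted p 0.076. Between tph2-/- and tph2+/+ the difference was 0.03, with an interval of -0.14 to 0.20 (adjusted p = 0.837).

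Hoxd1, known in mice for a role in pain-sensing neurons, was the lowest of the 9 genes, at 1.29 and 0.999 RPKM in tph2-/-, 0.612 and 0.671 RPKM in tph2+/-, and 1.09 and 0.91 RPKM in tph2+/+. Its tph2+/- libraries were again below the other 4, with 46 and 51 reads on a model of 1862 bases. Summed over libraries, tph2+/- had 97 Hoxd1 reads, against 169 in tph2+/+, a depth-adjusted ratio of 0.642 with a 95% interval of 0.495 to 0.829. The tph2-/- libraries had 166 reads, 1.78 times the tph2+/- value (1.38 to 2.31). These exact intervals cover counting error only. In a fit with no filter on low values Hoxd1 did not pass, at -0.28 in tph2+/- against tph2+/+ (adjusted p = 0.211) and 0.38 in tph2-/- against tph2+/- (adjusted p = 0.197). On this scale a gene at 1 RPKM has its change understated.

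Hoxd3 and Hoxd4 kept close proportions to each other. They share 388 exonic bases, and how reads there were assigned is not known, so their values may not be independent. The ratio of Hoxd3 to Hoxd4, taken in RPKM, stood at 0.738 and 0.771 in tph2-/-, 0.742 and 0.729 in tph2+/- libraries, and 0.691 and 0.737 in tph2+/+, so the genotypes overlapped in this ratio although the tph2+/- levels of both genes lay apart. The ratio of the sparsely read Hoxd1 to Hoxd4 varied more, at 0.0802 and 0.0582 in tph2-/-, 0.0543 and 0.0607 in tph2+/- libraries, and 0.0649 and 0.0516 in tph2+/+, and the genotypes overlapped. Against their HoxA paralogs the proportion shifted. Hoxd3 over Hoxa3 was 1.09 and 1.23 in tph2-/-, 0.734 and 0.665 in tph2+/- libraries, and 0.909 and 0.994 in tph2+/+, and Hoxd4 over Hoxa4 was 2.22 and 2.33, 1.43 and 1.07, and 2.27 and 2.75 in the same order. Both ratios were lowest in the tph2+/- libraries. The sum over paralog group 3 of all clusters was 37.9 and 40.3 RPKM in tph2-/-, 36.2 and 36.6 RPKM in tph2+/-, and 41.2 and 43.3 RPKM in tph2+/+. For paralog group 4 the sum was 45.8 and 47.8 RPKM (tph2-/-), 42 and 46.1 RPKM (tph2+/-), and 54 and 54.8 RPKM (tph2+/+). In that sum tph2-/- overlapped tph2+/-, and both lay below tph2+/+. No test was made of these ratios and sums.

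The HoxA genes lie on the minus strand of chromosome 6 of GRCm38, from Hoxa2 at chr6:52162417-52164831 to Hoxa7 at chr6:52214491-52221854, with Hoxa3 (chr6:52169062-52213336), Hoxa4 (chr6:52189671-52191753), Hoxa5 (chr6:52201754-52204587) and Hoxa6 (chr6:52206288-52208722) between them. The long annotated Hoxa3 gene spans Hoxa4, Hoxa5 and Hoxa6. Of their exonic bases, 20.4% of Hoxa7 (586 bases with the antisense gene Hoxaas3), 27.1% of Hoxa3, 16% of Hoxa4 and 15% of Hoxa2 are also annotated to another gene, and none of Hoxa5 or Hoxa6. As for Hoxd3 and Hoxd4, no annotated transcript has the gene model length of Hoxa3 (2543 bases), Hoxa4 (1528), Hoxa6 (699) or Hoxa7 (1951). Which exons the values of these genes cover is therefore not known. The model lengths of Hoxa2 and Hoxa5 each match an annotated transcript. The row of Hoxaas3, carried in the table as 2700086A05Rik, had 9.61 and 10.6 RPKM in tph2-/-, 10.2 and 9.15 RPKM in tph2+/-, and 10.6 and 9.99 RPKM in tph2+/+, with overlapping genotypes and log2 fold changes of -0.03 and -0.09 against tph2+/+ (adjusted p = 0.831 and 0.601).

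Hoxa7, which gives thoracic vertebrae their identity and is also used by blood progenitors, had 11.4 and 12.7 RPKM in tph2-/-, 13.7 and 13.2 RPKM in tph2+/-, and 17.2 and 18.9 RPKM in tph2+/+. The 2 tph2+/+ libraries lay above the other 4. The tph2-/- mean of 12 ± 0.911 RPKM was 33.5% below the tph2+/+ mean of 18.1 ± 1.25 RPKM (SD, n = 2 each), with a log2 fold change of -0.55 ± 0.0719 (SE, adjusted p = 0.00228). In tph2+/- the mean was 13.5 ± 0.3 RPKM, 25.5% below tph2+/+ (-0.40 ± 0.0719, adjusted p = 0.0126), a call lost without tph2+/- replicate 2 (-0.38, adjusted p = 0.054) or tph2+/+ replicate 2 (-0.33, 0.122). Between tph2-/- and tph2+/- the difference was -0.15, with an interval of -0.32 to 0.01 (adjusted p = 0.403). With a sex term in the fit, which only the tph2+/- pair can estimate, Hoxa7 gave -0.50 in tph2-/- (adjusted p = 0.104) and -0.37 in tph2+/- (0.0627).

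The part of Hoxa7 upstream of its RefSeq start is shown with the same capitals, on the minus strand, up to the first annotated exonic base.
Hoxa7, chr6:52218712-52218823 (GRCm38.p6): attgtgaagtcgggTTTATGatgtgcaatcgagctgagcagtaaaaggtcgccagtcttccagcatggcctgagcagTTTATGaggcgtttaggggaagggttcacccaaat
It held 2 matches to TTTATG, 236 and 173 bases before the start, and none to AGGTCA or TATAAA. Hoxa7 is also known as a target of the miR-196 family, small RNAs encoded within Hox clusters that lower the RNA they pair with, and miR-10 genes sit beside the group 4 Hox genes. The mature sequences are given with the seed (bases 2 to 8) in capitals.
mmu-miR-196b-5p, chr6:52230129-52230150: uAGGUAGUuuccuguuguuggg
mmu-miR-10b-5p, chr2:74726074-74726096: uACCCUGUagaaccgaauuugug
The 3′ UTR of Hoxa7 (1219 bases) holds 4 matches to the miR-196b seed, shown in capitals with their flanks in order from the stop codon.
Hoxa7 site 1: gccaaaatACTACCTagcacagg
Hoxa7 site 2: actcccaaACTACCTatgggccc
Hoxa7 site 3: tgatcaatACTACCTactactag
Hoxa7 site 4: agccctaaACTACCTattgtgtg
Of 8824 3′ UTRs at least as long, 5.07% held 1 or more such matches in a window of that length. Hoxa4 and Hoxa5 held 1 match each, and Hoxa2, Hoxa3, Hoxa6, Hoxd1, Hoxd3 and Hoxd4 none. For the miR-10b seed, Hoxa3 and Hoxd1 held 1 match each, and Hoxd3 and Hoxd4 none. Mature miRNAs were not measured. The hairpin row of Mir196b, in which reads can come from a host transcript, had 5 and 4 reads in tph2-/-, 5 and 9 in tph2+/- libraries, and 1 and 4 in tph2+/+, and that of Mir10b, which lies inside Hoxd4, had 19 and 36, 4 and 15, and 14 and 29. For Mir10b the tph2-/- counts lay above the tph2+/- counts and both overlapped tph2+/+, and for Mir196b the tph2+/- counts lay above tph2+/+. Neither hairpin row passed the limma test in any comparison (adjusted p of 0.512 to 0.698 for Mir10b and 0.15 to 0.641 for Mir196b), and counts this low give it little precision.

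Hoxa6, another thoracic-level gene, had 16.2 and 17.2 RPKM in tph2-/-, 15.2 and 14.4 RPKM in tph2+/-, and 18.4 and 19.3 RPKM in tph2+/+. The 3 genotypes did not overlap, with tph2+/- the lowest. The means were 14.8 ± 0.598 RPKM in tph2+/- and 18.9 ± 0.579 RPKM in tph2+/+ (SD, n = 2 each), 21.4% lower in tph2+/- (-0.33 ± 0.0612, adjusted p = 0.0144). That call was lost without tph2+/- replicate 2 (-0.29, adjusted p = 0.0705), tph2+/+ replicate 1 (-0.36, 0.0717) or tph2+/+ replicate 2 (-0.30, 0.138), and with the sex term (-0.29, 0.076). In tph2-/- the value against tph2+/+ was -0.17 (adjusted p = 0.122).

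Hoxa3, needed for the thymus and parathyroid, had 10.8 and 10.8 RPKM in tph2-/-, 11.4 and 12.1 RPKM in tph2+/-, and 12.7 and 13.1 RPKM in tph2+/+. No genotypes overlapped, and tph2+/- lay in between. The means were 10.8 ± 0.0418 RPKM in tph2-/- and 12.9 ± 0.247 RPKM in tph2+/+ (SD, n = 2 each), 16.1% lower in tph2-/- (-0.23 ± 0.0594, adjusted p = 0.0419). Leaving out any of the 4 libraries compared ended the call, with values of -0.25 to -0.22 and adjusted p of 0.0899 without tph2-/- replicate 2, 0.141 without tph2-/- replicate 1, 0.152 without tph2+/+ replicate 1 and 0.269 without tph2+/+ replicate 2. It was also lost with the sex term (-0.32, adjusted p = 0.175), with no filter on low values (-0.23, 0.063) and without the trend and robust options of the fit (-0.23, 0.0622). In tph2+/- Hoxa3 was at -0.12 (adjusted p = 0.287).

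Hoxa4, which acts in neck and upper thoracic vertebrae, had 7.24 and 7.37 RPKM in tph2-/-, 7.9 and 10.4 RPKM in tph2+/-, and 7.39 and 6.41 RPKM in tph2+/+. The highest value came from tph2+/- replicate 2, and the tph2+/- libraries differed more from each other than those of the other genotypes. The tph2+/- mean was 9.13 ± 1.75 RPKM and the tph2+/+ mean 6.9 ± 0.693 RPKM (SD, n = 2 each), a difference of 0.35 with an interval of 0.10 to 0.61 that did not pass (adjusted p = 0.117). Without tph2+/- replicate 1 it passed in tph2+/- against tph2+/+ (0.53, adjusted p = 0.0104) and, in the other direction, in tph2-/- against tph2+/- (-0.45, 0.0488). Hoxa4 was thus the 1 tested gene of the set whose tph2+/- value leaned above tph2+/+ by more than 0.1 on the log2 scale.

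Hoxa5, required for lung and upper thoracic development, had 26.5 and 25.4 RPKM in tph2-/-, 27 and 29.1 RPKM in tph2+/-, and 27.1 and 28.5 RPKM in tph2+/+. The 1871 to 2400 reads per library made it the most deeply read of the 9 genes. Its difference was -0.10 in tph2-/- against tph2+/+ (interval -0.23 to 0.04, adjusted p = 0.334) and 0.01 in tph2+/- (-0.12 to 0.15, 0.947), so a change of the size seen for Hoxa7 lies outside both intervals. Hoxa2, the selector gene of the second branchial arch, had 8.24 and 7.71 RPKM in tph2-/-, 8.31 and 8.94 RPKM in tph2+/-, and 9.27 and 8.37 RPKM in tph2+/+. Its differences were -0.13 in tph2-/- (interval -0.29 to 0.04, adjusted p = 0.289) and -0.03 in tph2+/- (-0.19 to 0.14, 0.884). Taken in RPKM, Hoxa7 over Hoxa5 came to 0.429 and 0.498 in tph2-/-, 0.506 and 0.455 in tph2+/- libraries, and 0.633 and 0.665 in tph2+/+, with tph2+/+ above every mutant library.

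Read together, 2 of 8 tested genes were lower in tph2-/- against tph2+/+ (Hoxa3 and Hoxa7) and none higher, where 9.64% of 12869 genes passed in either direction, 3.81% lower and 5.84% higher. The median over the 8 was -0.11, against 0.0302 over all genes. In tph2+/- against tph2+/+, 4 of 8 were lower (Hoxa6, Hoxa7, Hoxd3 and Hoxd4), where 6.08% of all genes passed, 1.95% lower and 4.13% higher, with a median of -0.23 against 0.0240. In tph2-/- against tph2+/-, 2 of 8 were higher (Hoxd3 and Hoxd4), where 1.29% passed, 0.746% higher and 0.544% lower, with a median of -0.10 against -0.0013. The calls over all genes depended on single libraries. The 1241 in tph2-/- against tph2+/+ became 388 without tph2-/- replicate 1, 809 without tph2-/- replicate 2, 466 without tph2+/+ replicate 1 and 383 without tph2+/+ replicate 2, and the 782 in tph2+/- against tph2+/+ became 325 without tph2+/+ replicate 1 and 339 without tph2+/+ replicate 2. The 166 in tph2-/- against tph2+/- became 57 without tph2-/- replicate 1, 74 without tph2-/- replicate 2 and 288 without tph2+/- replicate 1. Scaling moved the balance of directions: 751 higher and 490 lower calls in tph2-/- against tph2+/+ became 548 and 667 with quantile normalization and 620 and 640 with median-ratio scaling, and 531 and 251 in tph2+/- against tph2+/+ became 408 and 370 with quantile normalization. The comparisons share libraries, so a low or high value in 1 genotype enters each comparison of that genotype.

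**Figure D2:**
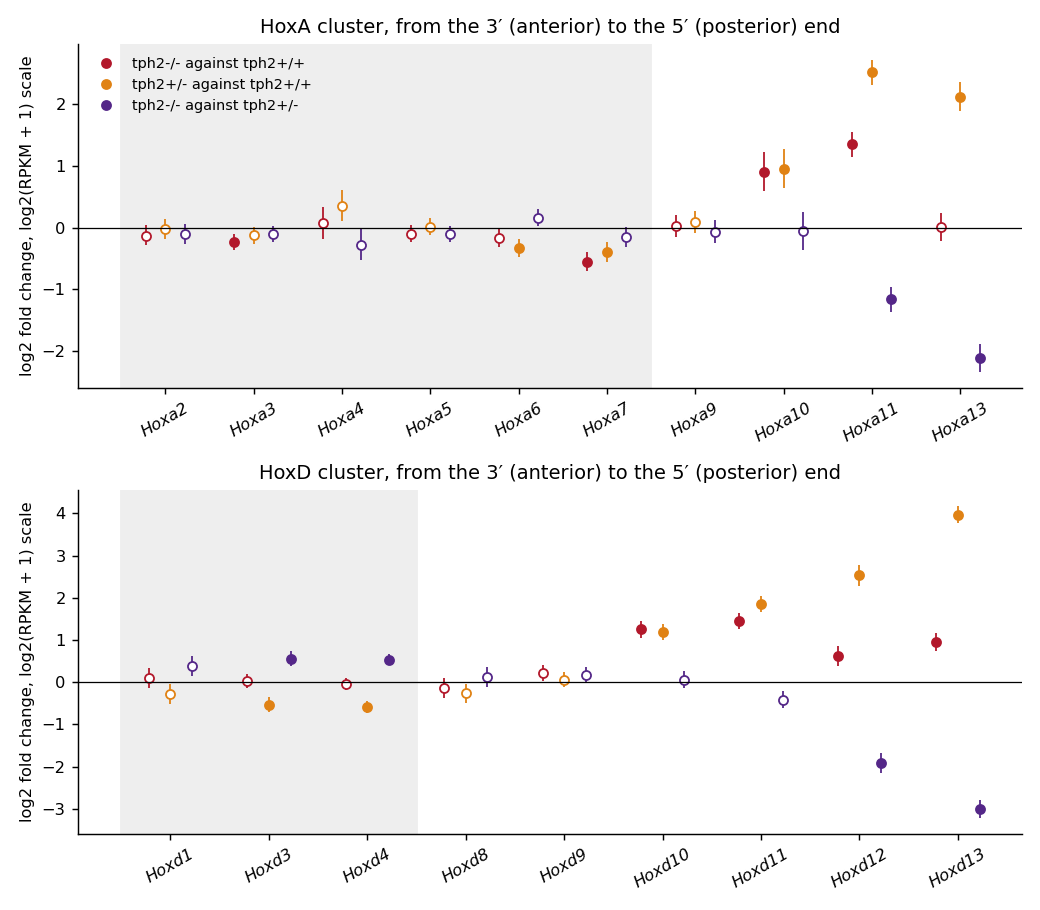
Log2 fold change on the log2(RPKM + 1) scale (y axis) of HoxA and HoxD genes in their order along the cluster, for each mutant genotype against tph2+/+ and for tph2-/- against tph2+/-; filled points passed the threshold, lines are 95% intervals of the fit (2 libraries per genotype, Hoxd1 from the fit with no filter), and the shaded genes are the 9 described here. The shaded genes lie between -0.58 and 0.56, while Hoxd13 reaches 3.97 in tph2+/- against tph2+/+.

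Along the clusters, the anterior genes that passed against tph2+/+ were all lower and the posterior genes that passed were all higher. Of the posterior HoxA genes 2 of 4 rose in tph2-/- and 3 of 4 in tph2+/- against tph2+/+. Hoxa10, a gene of lumbar identity and of blood progenitors, rose by 0.90 and 0.95, and Hoxa11, of the limb and kidney, by 1.35 and 2.52. Hoxa13, of the hand plate and hindgut, stood at 0.01 in tph2-/- (adjusted p = 0.978) and rose by 2.12 in tph2+/- (7.53e-06), and its difference between tph2-/- and tph2+/- was -2.11 (adjusted p = 2.56e-05). Of the posterior HoxD genes 4 of 6 rose in each comparison with tph2+/+. Over all genes 5.84% passed as higher in tph2-/- and 4.13% in tph2+/- against tph2+/+. Hoxd10 rose by 1.25 and 1.19, Hoxd11 by 1.45 and 1.85, Hoxd12 by 0.62 and 2.54, and Hoxd13 by 0.96 and 3.97, in tph2-/- and tph2+/- in that order. Hoxa9, Hoxd8 and Hoxd9, the nearest posterior neighbours of the anterior genes, passed in no comparison.

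Hoxd3 and Hoxd4 thus were lowest in the genotype in which Hoxd12 and Hoxd13 were highest. Hoxd13 had 1.61 and 1.3 RPKM in tph2-/-, 18.1 and 19.5 RPKM in tph2+/-, and 0.289 and 0.233 RPKM in tph2+/+. The anterior HoxD genes made up 47% and 47.2% of the summed HoxD RPKM in tph2-/-, 25.4% and 25.6% in tph2+/- libraries, and 58.1% and 60.2% in tph2+/+. Their own sum was 29.2 and 31.4 RPKM in tph2-/-, 20.3 and 19.8 RPKM in tph2+/-, and 29.4 and 31.6 RPKM in tph2+/+, so the lower share in tph2-/- went with more posterior RNA and not with less of the anterior genes. The anterior HoxA genes made up 64.8% and 65.6% of the RPKM summed over them and the posterior HoxA genes in tph2-/-, 56.1% and 62.6% in tph2+/- libraries, and 76.2% and 76.4% in tph2+/+, and their sum was 80.4 and 81.2, 83.5 and 88.2, and 92.1 and 94.6 RPKM. For both clusters the tph2+/+ libraries had the highest anterior share.

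**Figure D3:**
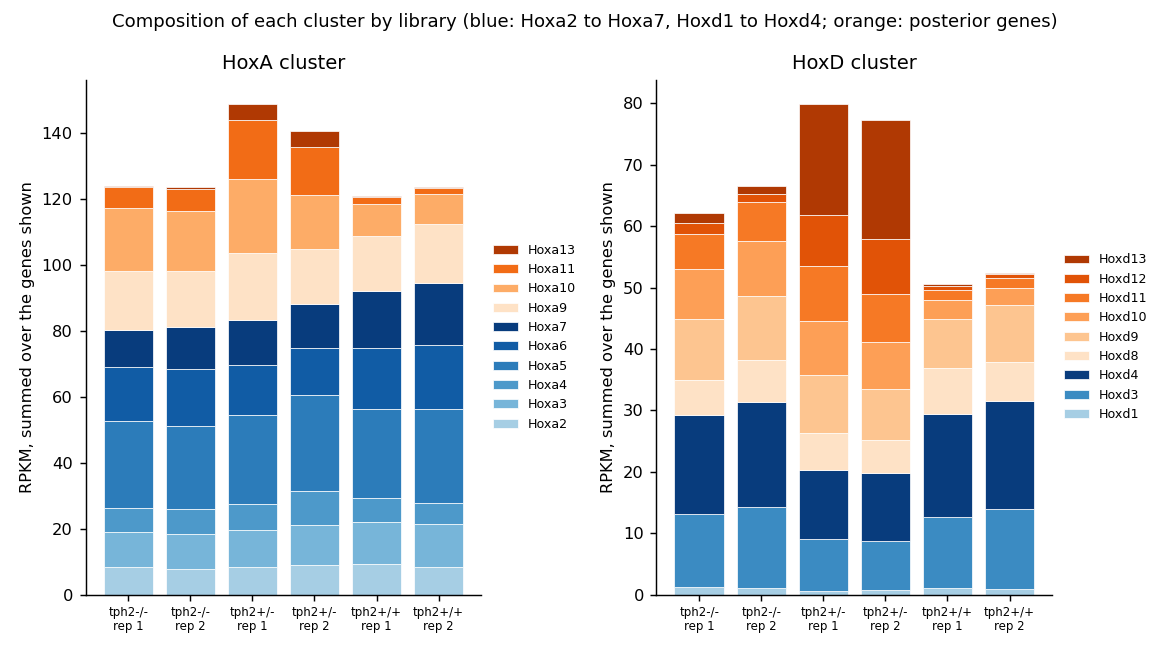
Summed RPKM of the anterior and posterior HoxA and HoxD genes in each library (tph2-/-, tph2+/- and tph2+/+ in order), stacked by gene; blue shades are the 9 anterior genes and orange shades the posterior genes of each cluster. The blue part of HoxD is 25.4% and 25.6% of the bar in tph2+/- and 58.1% and 60.2% in tph2+/+.

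The anterior genes of the HoxC and HoxB clusters give a comparison. All 4 of Hoxc4, Hoxc5, Hoxc6 and Hoxc8, which act from the neck to the thorax, fell in tph2-/- (median -0.60) and in tph2+/- (median -0.58) against tph2+/+, and none of the 4 passed between the mutant genotypes by limma (1 of 4 at an unadjusted p under 0.05). Hoxc6 had 28 and 30.5 RPKM in tph2-/-, 28.8 and 29.4 RPKM in tph2+/-, and 44.1 and 45.8 RPKM in tph2+/+. Of 6 tested anterior HoxB genes, Hoxb5 rose in tph2-/- (0.29, adjusted p = 0.0488), and Hoxb6 and Hoxb7 fell in tph2+/- (-0.35 and -0.39, both 0.0182). Over all genes 9.64% passed in tph2-/- and 6.08% in tph2+/- against tph2+/+. The count of 1 HoxB gene in tph2-/- is not read as a result about that list.

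Among the TALE cofactors, 5 of 9 fell in tph2+/- against tph2+/+, 1 fell in tph2-/- against tph2+/+, and 2 rose in tph2-/- against tph2+/-. Over all genes 6.08%, 9.64% and 1.29% passed in these comparisons, in that order. The count of 1 in tph2-/- is not read as a result about the list. Meis3 had 12.3 and 12.9 RPKM in tph2-/-, 9.69 and 8.95 RPKM in tph2+/-, and 13.2 and 13 RPKM in tph2+/+. Its tph2+/- libraries were the lowest, as for Hoxd3 and Hoxd4, at -0.45 against tph2+/+ (adjusted p = 0.00305), and tph2-/- was higher than tph2+/- by 0.40 (0.0168). Meis2 was also higher in tph2-/- than in tph2+/- (0.30, adjusted p = 0.0445). Pknox2 fell against tph2+/+ in tph2-/- (-0.27, adjusted p = 0.0476) and in tph2+/- (-0.40, 0.0118).

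Of 15 tested genes of retinoic acid transport, synthesis, breakdown and reception, 1 rose and 3 fell in tph2-/- against tph2+/+. In tph2+/- against tph2+/+, 2 rose and 5 fell, and in tph2-/- against tph2+/- 1 rose and 1 fell. Over all genes 9.64%, 6.08% and 1.29% passed in these comparisons, in that order. Cyp26b1, which breaks retinoic acid down, had 4.8 and 5.14 RPKM in tph2-/-, 14.7 and 11.9 RPKM in tph2+/-, and 4.18 and 4.52 RPKM in tph2+/+. Its tph2+/- libraries stood above all others (1.41 against tph2+/+, adjusted p = 6.16e-05, and -1.26 in tph2-/- against tph2+/-, 0.000243). Rarb, a retinoid receptor whose gene retinoic acid itself induces, was lowest in the tph2+/- libraries (8.41 and 7.41 RPKM), at -0.47 against tph2+/+ (adjusted p = 0.00412), and tph2-/- was above tph2+/- by 0.36 (0.0482). Stra6, the receptor that takes up retinol, and Crabp1, a binding protein in the cell, fell in tph2-/- (-0.40 for Stra6, -0.31 for Crabp1) and tph2+/- (-0.40 and -0.38). Rbp4, the retinol carrier that liver cells make, rose in tph2-/- (2.76) and in tph2+/- (2.55).

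Among chromatin regulators of Hox clusters, 2 of 17 tested Polycomb genes fell in tph2-/- against tph2+/+, Cbx2 (-0.35, adjusted p = 0.00674) and Phc1 (-0.21, 0.0479), both subunits of the complex that compacts silenced chromatin. None passed in the other comparisons by limma (1 in each at an unadjusted p under 0.05). Of 9 tested Trithorax and demethylase genes, 1 fell in tph2-/- (-0.29, adjusted p = 0.0324), a row under the older symbol Mll2, which has been used for more than 1 gene. Over all genes in that comparison 9.64% passed, 3.81% lower, so counts of 1 or 2 are not read as a result about either list. None passed elsewhere by limma (0 at an unadjusted p under 0.05). Of 6 tested noncoding RNAs of the Hox clusters, only Hoxa11as, antisense to Hoxa11, passed. It rose in tph2-/- (1.45) and in tph2+/- (3.17) against tph2+/+ and was lower in tph2-/- than in tph2+/- (-1.73). Over all genes 9.64%, 6.08% and 1.29% passed in these comparisons, in that order. A count of 1 is not read as a result about this list.

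Several marker lists of other tissues differed between the same genotypes. For the counts below, the share of all genes that passed was 9.64% in tph2-/- and 6.08% in tph2+/- against tph2+/+. It was 1.29% in tph2-/- against tph2+/-. Limb bud markers summed to 86.6 and 99.9 RPKM in tph2-/-, 116 and 90.5 RPKM in tph2+/-, and 70 and 74.1 RPKM in tph2+/+, with 4 of 7 higher in tph2+/- and none lower against tph2+/+, and 3 of 7 lower in tph2-/- against tph2+/-. Tbx5, of the forelimb bud, had 2.68 and 3.24 RPKM in tph2-/-, 12.7 and 14.7 RPKM in tph2+/-, and 7.53 and 8.4 RPKM in tph2+/+. In tph2-/- against tph2+/+ the list was mixed, with 2 of 7 higher (Shh at 0.88, Lmx1b at 0.57) and 1 lower (Tbx5 at -1.18). No limb bud marker was at 0 in any library. Somite and muscle markers summed to 153 and 166 RPKM in tph2-/-, 143 and 163 RPKM in tph2+/-, and 215 and 224 RPKM in tph2+/+, with 5 of 8 lower in tph2-/- and 6 of 8 lower in tph2+/- against tph2+/+. In tph2-/- against tph2+/-, 2 of these 8 were higher, Uncx (0.54, adjusted p = 0.0171) and Meox1 (0.37, 0.0102), and 6 did not pass. Neural tube markers summed to 81 and 85.7 RPKM in tph2-/-, 31.3 and 35.9 RPKM in tph2+/-, and 24.1 and 24 RPKM in tph2+/+, with 7 of 8 tested higher in tph2-/- and 5 of 8 in tph2+/- against tph2+/+, 6 of 8 higher in tph2-/- than in tph2+/-, Olig2 at 0 in 3 libraries and Neurog1 in 1. Hepatoblast markers summed to 364 and 339 RPKM in tph2-/-, 227 and 362 RPKM in tph2+/-, and 33.4 and 32.6 RPKM in tph2+/+, with all 5 higher in each mutant genotype. Gut and lung mesenchyme markers summed to 76.8 and 89.3 RPKM in tph2-/-, 87.9 and 93.1 RPKM in tph2+/-, and 57.3 and 64.3 RPKM in tph2+/+. Of these 5, 3 were higher and 1 lower in tph2-/- and 2 higher in tph2+/- against tph2+/+, led by Barx1, of the stomach mesenchyme (4.07 and 4.21). Foregut endoderm markers were higher for 3 of 4 tested, and erythroid and blood markers for 3 of 5, in each mutant genotype against tph2+/+. Neural crest markers were higher for 2 of 6 and lower for 3 in tph2-/-, and lower for 2 in tph2+/-. AGM, mesonephros and gonad markers fell for 3 of 8 tested in tph2-/- and 4 of 8 in tph2+/-. The part of these tissues in the values of the anterior Hox genes was not tested.

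By the root mean square difference between centred log2(RPKM + 1) profiles over the 6 libraries, the gene most like Hoxd3 among 12071 was Hoxd4, and the reverse held too (0.0434). Hoxd3 and Hoxd4 share 388 exonic bases, and what reads there add to this likeness was not tested. Next came Calb1 (0.0823) and Dpysl4 (0.0834) for Hoxd3, and Calb1 (0.0672) and Meis3 (0.0711) for Hoxd4. Calb1, a calcium-binding protein of neurons and kidney tubules, had 2.28 and 2.07 RPKM in tph2-/-, 1.19 and 1.2 RPKM in tph2+/-, and 2.09 and 2.12 RPKM in tph2+/+. Nearest to Hoxa7 were the basement membrane gene Hspg2 (0.0358), the collagen processing gene Pcolce (0.0425) and the chromogranin gene Chga (0.0435), nearest to Hoxa6 were Cyb561, Reep2 and Frmd4b (0.0212 to 0.0232), and nearest to Hoxa3 were Antxr1, Plxna3 and Mcam (0.0114 to 0.018). Hoxa7 and Hoxd4 were 0.291 apart, and Hoxa7 and Hoxa6 0.169.

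**Figure D4:**
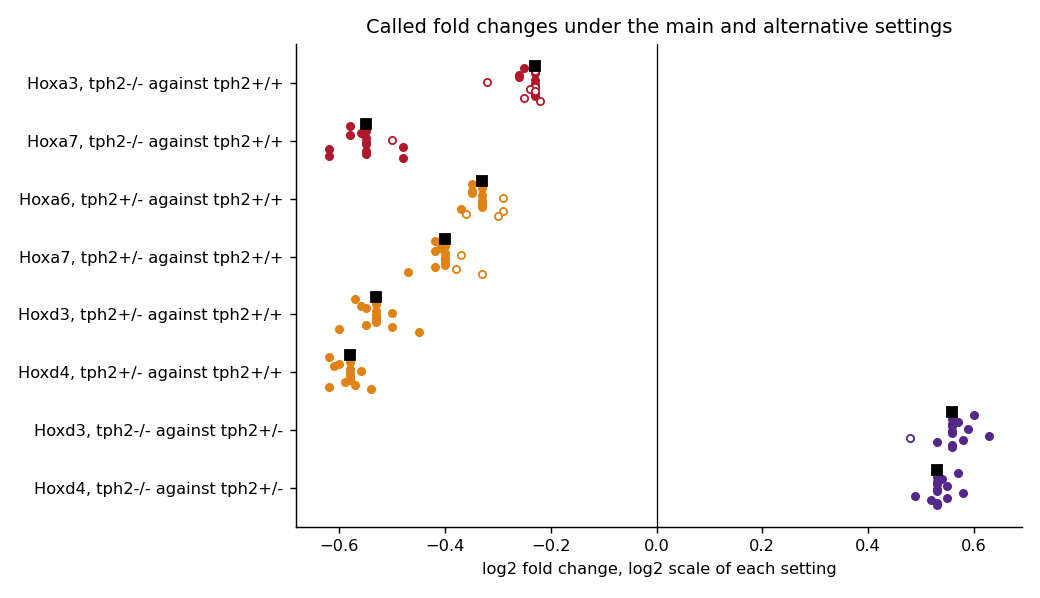
Log2 fold change (x axis, on the log2 scale of each setting) of every anterior HoxA or HoxD gene past the threshold, 1 line per gene and comparison; the black square is the reported value, filled circles are alternatives in which it passed and open circles those in which it did not. Hoxd4 passed in all 15 alternatives in both of its comparisons, and Hoxa3 in 8 of 15.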

How the data were processed

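RNA of 6 AGM libraries was made into TruSeq RNA libraries from about 1 µg and read as 150 bp pairs, per the labels' protocols. TopHat2 2.0.9, HTSeq 0.5.3p9 and the build GRCm38 are named in the submitters' processing notes. The deposited values were RPKM computed by the authors for 56826 rows, of which 33353 clone rows (30.2% to 30.8% of summed RPKM) and 27 rows with dates for names were left out. On log2(RPKM + 1), 1 model of the 3 genotypes over all 6 libraries was fitted with limma 3.58.1 under R 4.3.3 (lmFit, eBayes with trend and robust), with 3 residual degrees of freedom, a mean of at least 1 RPKM and Benjamini-Hochberg adjustment over 12869 genes, after a check on simulated data. Whole reads behind the Hox rows were recovered from the size of 1 read, with library totals taken from microRNA hairpin rows, of whose values 96.2% to 97.6% were whole within 0.02. All 39 Hox rows came out whole within 0.05. These reads gave exact ratio intervals. Sequences came from RefSeq (GRCm38.p6) and exons and UTRs from GENCODE M21. Named genes were all 9 anterior HoxA and HoxD genes, the other HoxA and HoxD rows, up to 3 higher and 3 lower genes of each other list, and the 3 genes most like each one that passed. Some genes under this rule are not reported here. These genes and lists were chosen with earlier results of these data known. Alternatives changed the pseudocount, filter, scaling, variance model, samples fitted, sex term and replicate block, and left out each library.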

Additional observations from a re-analysis of the deposited data

How the results depend on the processing

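Of 363 fold changes of the anterior Hox genes under alternatives, 335 kept their direction and side of the threshold. Hoxd4 and Hoxd3 passed in tph2+/- against tph2+/+ in all 15 alternatives (-0.62 to -0.54 and -0.60 to -0.45), and Hoxd4 in tph2-/- against tph2+/- in all 15 (0.49 to 0.58). In tph2-/- against tph2+/+, the genes called numbered 1 (Hoxa7) with no filter and 1 without the trend and robust options, 0 with a sex term in limma (2 at an unadjusted p under 0.05), and 1 to 2 with a library left out. In tph2+/- against tph2+/+ they numbered 2 (Hoxd3 and Hoxd4) with a sex term and 2 to 5 with a library left out, and in tph2-/- against tph2+/- 1 to 3. The pathway genes called in tph2-/- against tph2+/+ numbered 20, and 11 to 23 with a library left out. Over all genes, the calls in tph2-/- against tph2+/+ numbered 400 with a sex term against 1241, and those in tph2-/- against tph2+/- numbered 264 with a sex term and 292 with a mean of at least 0.1 RPKM against 166. No called gene changed sign. Of values that had not passed, Hoxa4 in tph2-/- against tph2+/+ changed sign with a sex term (-0.29) and without tph2+/+ replicate 2 (-0.01), and Hoxd3 in that comparison without tph2-/- replicate 2 (-0.04) or tph2+/+ replicate 1 (-0.05; -0.05 to 0.11 over libraries left out). In tph2+/- against tph2+/+, Hoxa2 changed sign without tph2+/- replicate 1 (0.02) or tph2+/+ replicate 1 (0.04; -0.10 to 0.04), and Hoxa5 with median-ratio scaling (-0.02), a sex term (-0.04), or without tph2+/- replicate 2 (-0.04) or tph2+/+ replicate 1 (-0.02; -0.04 to 0.06). The cause was not tested. The labels mention littermates but not which libraries they are, and samples of the same replicate number share only that number: their deviations correlated at 0.073, 0.17 and 0.033. With a replicate block the anterior genes called stayed 2, 4 and 2, and the pathway genes numbered 24, 28 and 10, against 20, 26 and 9. Depth limits Hoxd1, with 46 to 93 reads per library. With 2 libraries per genotype, the fit rests on few degrees of freedom.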
